A study of Leucoraja erinaceus with 6 samples.

Results

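The genes that make, package, take back and break down the monoamines were followed in embryonic tissue of the little skate (Leucoraja erinacea), a cartilaginous fish. A gene belonged to the set if its row carried a symbol of tyrosine hydroxylase, aromatic amino acid decarboxylase, dopamine beta-hydroxylase, phenylethanolamine N-methyltransferase, tryptophan hydroxylase, the plasma membrane or vesicular monoamine transporters, monoamine oxidase, catechol-O-methyltransferase or GTP cyclohydrolase. The symbols matched 8 of 22087 named genes: th, th2, dbh, tph1a, slc18a2, slc6a2, slc6a4b and mao. Other symbols of the rule, among them ddc, pnmt, tph2, slc6a3, slc18a1, comt and gch1, matched no row and were not analysed here. Many skate genes carry an identifier starting with LOC in place of a symbol, and such rows were not searched.

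The libraries came from dorsal root ganglia (DRG), which hold the cell bodies of sensory neurons, and from the spinal cord, which their axons enter. Both tissues were dissected from untreated wild-type embryos at stage 32, with an egg temperature of 16 °C for all libraries. The labels describe both tissues as mixed neurons and glia. Each tissue had 3 libraries, each from a pool of 3 to 4 embryos; the labels give the pool numbers 815, 816 and 818 to the libraries of both tissues. PolyA-selected RNA was sequenced, so the values are messenger RNA levels of a whole tissue, in which fewer cells of a type and less RNA per cell cannot be told apart.

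Catecholamines begin with tyrosine hydroxylase, which turns tyrosine into L-DOPA; decarboxylation gives dopamine, and dopamine beta-hydroxylase turns dopamine into noradrenaline. Serotonin begins with tryptophan hydroxylase. Vesicular monoamine transporters load all of these into vesicles, sodium-dependent transporters of the SLC6 family take them back from outside the cell, and monoamine oxidase degrades them. In mammals most monoamines of the spinal cord arrive in axons from the brainstem, whose messenger RNA lies mainly in cell bodies outside the cord, whereas many fishes also have monoamine neurons within the cord. In mouse DRG, th marks a class of low-threshold mechanoreceptors with unmyelinated axons (C-LTMRs).

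Library totals were 26472152 to 27093555 counts in DRG and 24693555 to 29080300 in spinal cord. Levels are given in CPM, counts scaled to library size and with TMM, which corrects for differences in library composition; its factors were 0.657 to 0.834 in DRG and 1.37 to 1.43 in spinal cord. The 13 mitochondrial protein-coding genes took 24.3% to 35.7% of the named genes' counts in DRG and 5.39% to 6.88% in spinal cord. Scaling to library sizes alone moved the median change of the tested genes by -0.95 on the log2 scale (DRG over spinal cord), so changes below are relative to the TMM scale. Of the sensory neuron markers, 5 of 6 tested were higher in DRG (summed levels of 536 to 757 CPM in DRG and 188 to 205 CPM in spinal cord). No difference was detected for avil (log2 fold change -0.26, edgeR adjusted p = 0.771). With library sizes alone, ntrk2a, runx1 and drgx did not pass (edgeR adjusted p = 0.0773, 0.137 and 0.109). Of the summed levels, ntrk2a alone held 354 to 576 CPM in DRG and 152 to 167 CPM in spinal cord. Of the spinal cord markers, 7 of 7 were lower in DRG (4.52 to 7.73 CPM in DRG and 631 to 699 CPM in spinal cord). Over all tested genes, 27.8% were higher and 28.1% lower in DRG. The defining sensory gene pou4f1 matched no row and was not analysed here. Transcript lengths were not used, so levels are compared between tissues within a gene and not between genes.

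Of the 8 monoamine genes, 6 had enough counts for the test and 2, th2 and dbh, did not. In edgeR's quasi-likelihood test with Benjamini-Hochberg adjustment over all 16112 genes tested, 3 of the 6 differed at an adjusted p under 0.05. Over all genes the share was 55.9%, so the number that differed was near the background. The serotonin genes tph1a and slc6a4b were higher in DRG, where 27.8% of all genes were, and the vesicular transporter slc18a2 was lower in DRG, where 28.1% were. The noradrenaline transporter slc6a2 missed the threshold in this fit and passed it with the pool as a block. No difference was detected for th and mao.

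**Figure D1:**
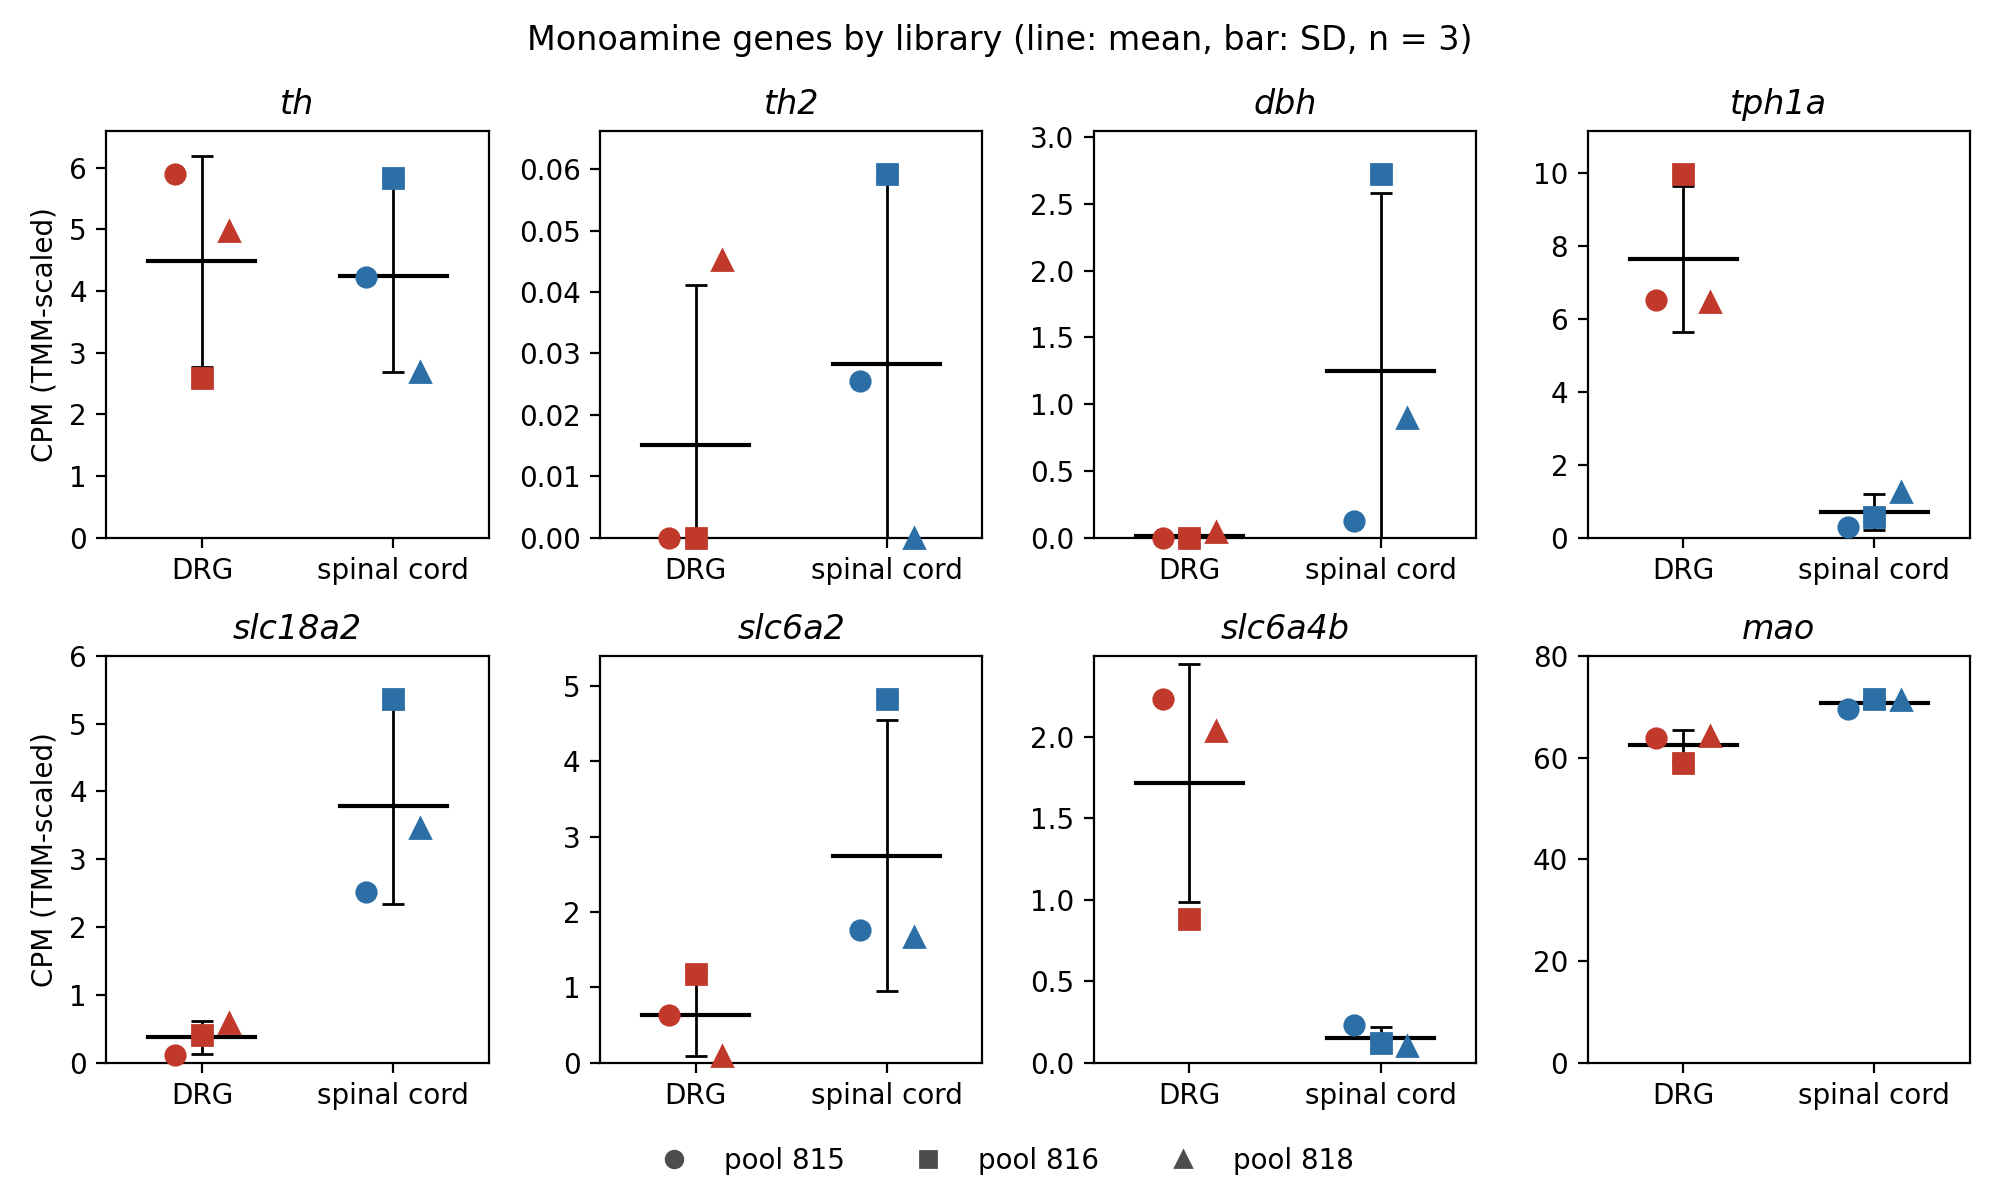
Level of each of the 8 monoamine genes in each library, in CPM scaled with TMM, with DRG on the left and spinal cord on the right of each panel; marker shapes give the pool, the line is the mean of 3 libraries and the bar the SD, not drawn below 0. All 3 DRG libraries lie above all 3 spinal cord libraries for tph1a and slc6a4b and below them for slc18a2, slc6a2 and mao, while the tissues overlap for th; th2 stays at or below 2 counts in every library.

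Synthesis of catecholamines starts with th, and its level was similar in both tissues. It stood at 5.89, 2.58 and 4.97 CPM in DRG pools 815, 816 and 818, against 4.23, 5.83 and 2.69 CPM in spinal cord pools 815, 816 and 818. The ranges overlapped almost entirely, and pool 816 held the lowest of the DRG values and the highest of the spinal cord values. Means were 4.48 ± 1.71 CPM in DRG and 4.25 ± 1.57 in cord (SD, n = 3 each). The log2 fold change was 0.08 ± 0.41 SE with a 95% interval of -0.86 to 1.02 (edgeR adjusted p = 0.882), and the interval spans changes of up to about 2-fold. The sign of the difference turned with library sizes alone, to -0.85 (edgeR adjusted p = 0.105).

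The second tyrosine hydroxylase gene, th2, which placental mammals lack, was at the limit of detection. It had 0, 0 and 1 counts in the DRG libraries and 1, 2 and 0 counts in the spinal cord libraries. A limit of 3 counts corresponds to 0.136 to 0.176 CPM in DRG and 0.0764 to 0.0888 CPM in spinal cord, and such limits cover counting error only. No fold is given, since both tissues were below it.

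Noradrenaline synthesis needs dbh, and its counts came almost entirely from spinal cord. The DRG libraries of pools 815, 816 and 818 held 0, 0 and 1 counts, against 5, 92 and 35 counts in the spinal cord libraries of these pools. In CPM every spinal cord library was above every DRG library, but cord pool 815 only narrowly. Its 0.127 CPM lay below the limit of 3 counts in DRG, 0.136 to 0.176 CPM, so for this library the separation is uncertain. The spinal cord libraries differed among themselves by 21.4-fold in CPM. On summed counts, 1 in DRG and 132 in spinal cord, the level in spinal cord was 66.7 times that in DRG, with a 95% exact interval of 11.8 to 2654 that covers counting error only. Without spinal cord pool 816 the ratio was 28.9 (4.90 to 1171). The gene was removed by the filter on low counts because a single spinal cord library fell short, and without any filter it was lower in DRG (edgeR adjusted p = 0.00905).

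Serotonin synthesis starts with tryptophan hydroxylase, and tph1a was higher in DRG. In mammals, Tph1 is the form known from the pineal gland and from cells outside the nervous system, and Tph2 the form of brain neurons. The level of tph1a was 6.52, 9.97 and 6.46 CPM in DRG, against 0.280, 0.562 and 1.25 CPM in spinal cord, in the order of pools 815, 816 and 818. The lowest DRG library stood above the highest spinal cord library, and the direction held in 3 of 3 pools. With means of 7.65 ± 2.01 CPM in DRG and 0.699 ± 0.501 in cord (SD, n = 3 each), the fitted level was 10.9-fold higher in DRG (log2 fold change 3.44 ± 0.55 SE, 95% interval 2.18 to 4.70, edgeR adjusted p = 0.00103). Without cord pool 818, which held the highest cord level, the log2 fold change was 4.17. It was 3.06 without cord pool 815 and 2.46 with library sizes alone.

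The serotonin transporter gene slc6a4b, which encodes the protein that returns serotonin to the cell, was also higher in DRG. The DRG libraries had 2.23, 0.879 and 2.03 CPM and the spinal cord libraries 0.229, 0.118 and 0.102 CPM. These rest on 39, 15 and 45 counts in DRG and on 9, 4 and 4 counts in spinal cord. The tissues did not overlap, although pool 816 stood well below the other DRG libraries. Means were 1.71 ± 0.730 CPM in DRG and 0.150 ± 0.0690 in cord (SD, n = 3 each), which gave a log2 fold change of 3.47 ± 0.60 SE (95% interval 2.09 to 4.86, edgeR adjusted p = 0.00162). With library sizes alone the log2 fold change was 2.56. Within DRG both serotonin genes departed most from their means in pool 816, in opposite directions: tph1a was highest and slc6a4b lowest there.

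Blood cells also handle serotonin, and the blood marker rhag was higher in DRG too. Of 3 tested blood markers, 2 were higher and 1 lower in DRG, where 27.8% and 28.1% of all genes were. Their summed level was 49.1 to 113.6 CPM in DRG and 13.5 to 15.3 CPM in spinal cord. The red cell gene rhag stood at 77.3, 45.9 and 35.3 CPM in DRG, against 7.94, 5.57 and 4.15 CPM in spinal cord. The leukocyte gene ptprc stood at 11.7, 67.0 and 13.5 CPM in DRG, against 6.29, 6.51 and 9.40 CPM in spinal cord. The calls of ptprc and of spi1b, the marker that was lower, missed the threshold with the replicate block (edgeR adjusted p = 0.058 and 0.0866) and when any 1 library of the cord was left out. Markers of thrombocytes and mast cells were looked up after the values of tph1a and slc6a4b were seen. Of 7 thrombocyte symbols, 2 matched: the platelet receptor gene gp1bb had 10.5, 9.38 and 4.84 CPM in DRG, against 0.382, 0.622 and 0.717 CPM in spinal cord (log2 fold change 3.84 ± 0.43 SE, edgeR adjusted p = 0.000176), and mpl did not pass (edgeR adjusted p = 0.344). Of 5 mast cell symbols, 1 matched, kita, with a log2 fold change of -6.46. It had 0.572 to 0.997 CPM in DRG and 52.4 to 77.5 CPM in spinal cord. With 1 marker matched, the share of mast cells in either tissue was not assessed. The part of blood cells in the tph1a and slc6a4b values was not tested.

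The matched gene for packaging into vesicles went the other way. The vesicular monoamine transporter slc18a2, which loads serotonin, dopamine, noradrenaline and histamine, was lower in DRG. Its DRG levels were 0.114, 0.410 and 0.588 CPM, from 2, 7 and 13 counts, against 2.52, 5.36 and 3.46 CPM in spinal cord, from 99, 181 and 135 counts. All DRG libraries lay below all spinal cord libraries. Means were 0.371 ± 0.239 CPM in DRG and 3.78 ± 1.45 in cord (SD, n = 3 each), which gave a log2 fold change of -3.31 ± 0.59 SE (95% interval -4.67 to -1.94, edgeR adjusted p = 0.00192), or 9.90-fold higher in spinal cord. The DRG libraries thus had more tph1a and slc6a4b and less slc18a2 than the spinal cord libraries in each of the 3 pools.

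Uptake of noradrenaline runs through slc6a2. Its levels were 0.629, 1.17 and 0.0904 CPM in DRG, against 1.76, 4.83 and 1.66 CPM in spinal cord, and the tissues did not overlap. The spread was wide in both: DRG pool 818 held 2 counts, and cord pool 816 was 2.90 times the lowest cord library in CPM. Means were 0.631 ± 0.541 CPM in DRG and 2.75 ± 1.80 in cord (SD, n = 3 each), which gave a log2 fold change of -2.14 ± 0.81 SE (95% interval -4.01 to -0.27, edgeR adjusted p = 0.0525). With the pool as a replicate block it was -2.34 and passed (edgeR adjusted p = 0.0199), as it did with DESeq2 (adjusted p = 0.0225), with limma voom (adjusted p = 0.0432) and with library sizes alone (-3.17, edgeR adjusted p = 0.00581). Without DRG pool 816 it also passed (-2.98, edgeR adjusted p = 0.0303), whereas in the other 5 fits that left out 1 library it did not (edgeR adjusted p = 0.0667 to 0.212), with a log2 fold change of -1.46 without cord pool 816. It did not pass without a filter either (edgeR adjusted p = 0.0518).

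For the breakdown of monoamines, the messenger RNA of mao was followed. This is the single monoamine oxidase gene that many fishes have in place of the mammalian pair. It varied least between libraries of the 8 genes, at 63.9, 58.9 and 64.3 CPM in DRG, against 69.5, 71.5 and 71.2 CPM in spinal cord. All DRG libraries were slightly below all spinal cord libraries, with means of 62.4 ± 2.99 CPM in DRG and 70.7 ± 1.05 in cord (SD, n = 3 each). The log2 fold change was -0.18 ± 0.12 SE (95% interval -0.45 to 0.09, edgeR adjusted p = 0.22). With library sizes alone it was -1.13 and passed (edgeR adjusted p = 0.000674), close to the shift of the median of all genes. Counting mao, 5 of the 6 tested members did not overlap between the tissues, against 65% of all genes. Of the 5, 2 were higher in DRG, as 30.8% of all genes were, and 3 were lower, as 34.1% were.

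**Figure D2:**
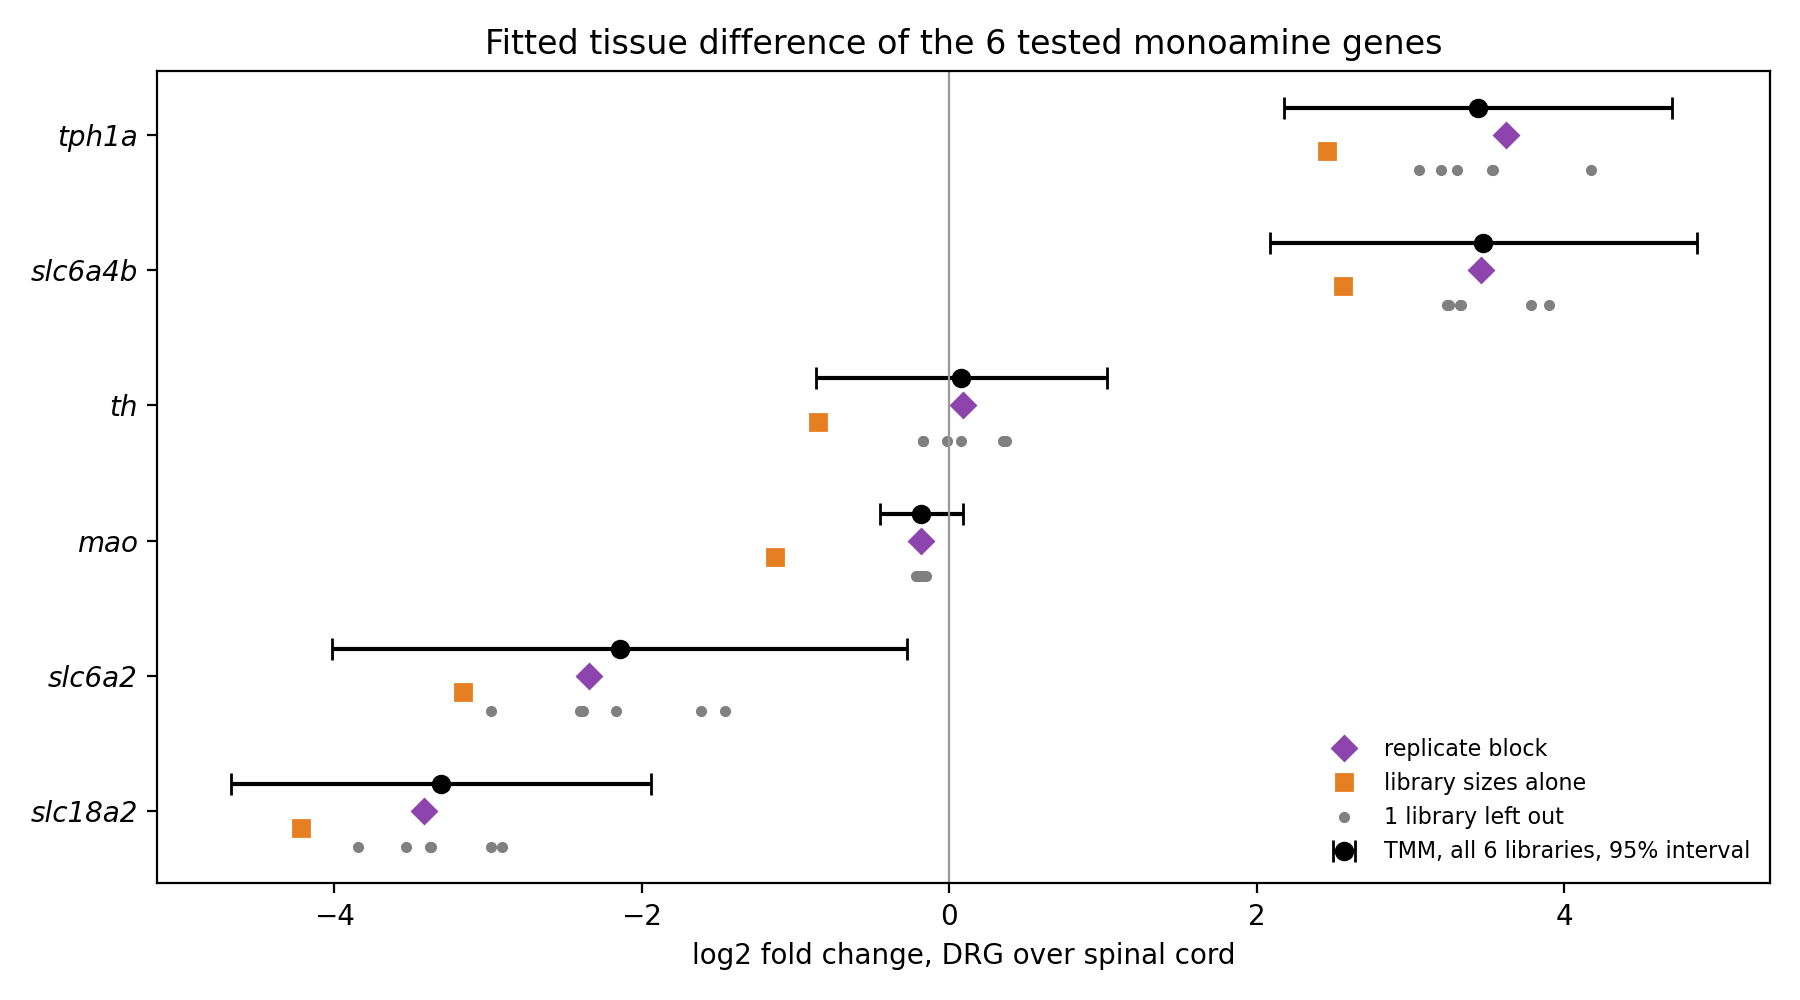
Fitted log2 fold change (DRG over cord) for the 6 tested monoamine genes: black points with 95% intervals are the TMM fit over all 6 libraries, purple diamonds the fit with the pool as a replicate block, orange squares library sizes alone, and grey dots the fits that leave out 1 library. The values of tph1a and slc6a4b stay above 0 and those of slc18a2 and slc6a2 below 0 in each fit drawn, th lies on both sides of 0, and library sizes alone move every gene to the left.

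Counts were also set against those of mao in the same library. This measure was chosen after the even level of mao was seen, and it is given without a test. Per 1000 mao counts, tph1a had 102, 169 and 101 counts in DRG and 4.03, 7.87 and 17.6 counts in spinal cord. The transporter slc6a4b had 34.9, 14.9 and 31.6 counts in DRG and 3.29, 1.66 and 1.44 counts in spinal cord. In the opposite direction, slc18a2 had 1.79, 6.97 and 9.14 counts in DRG and 36.2, 75.0 and 48.5 counts in spinal cord. The tissues did not overlap for these 3 genes; since mao is even on the TMM scale, these ratios follow the CPM values and do not check the scaling. They overlapped for th, with 92.1, 43.8 and 77.4 counts in DRG and 60.8, 81.6 and 37.7 counts in spinal cord. For slc6a2 there were 9.84, 19.9 and 1.41 counts in DRG and 25.3, 67.5 and 23.4 counts in spinal cord, with no overlap.

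**Figure D3:**
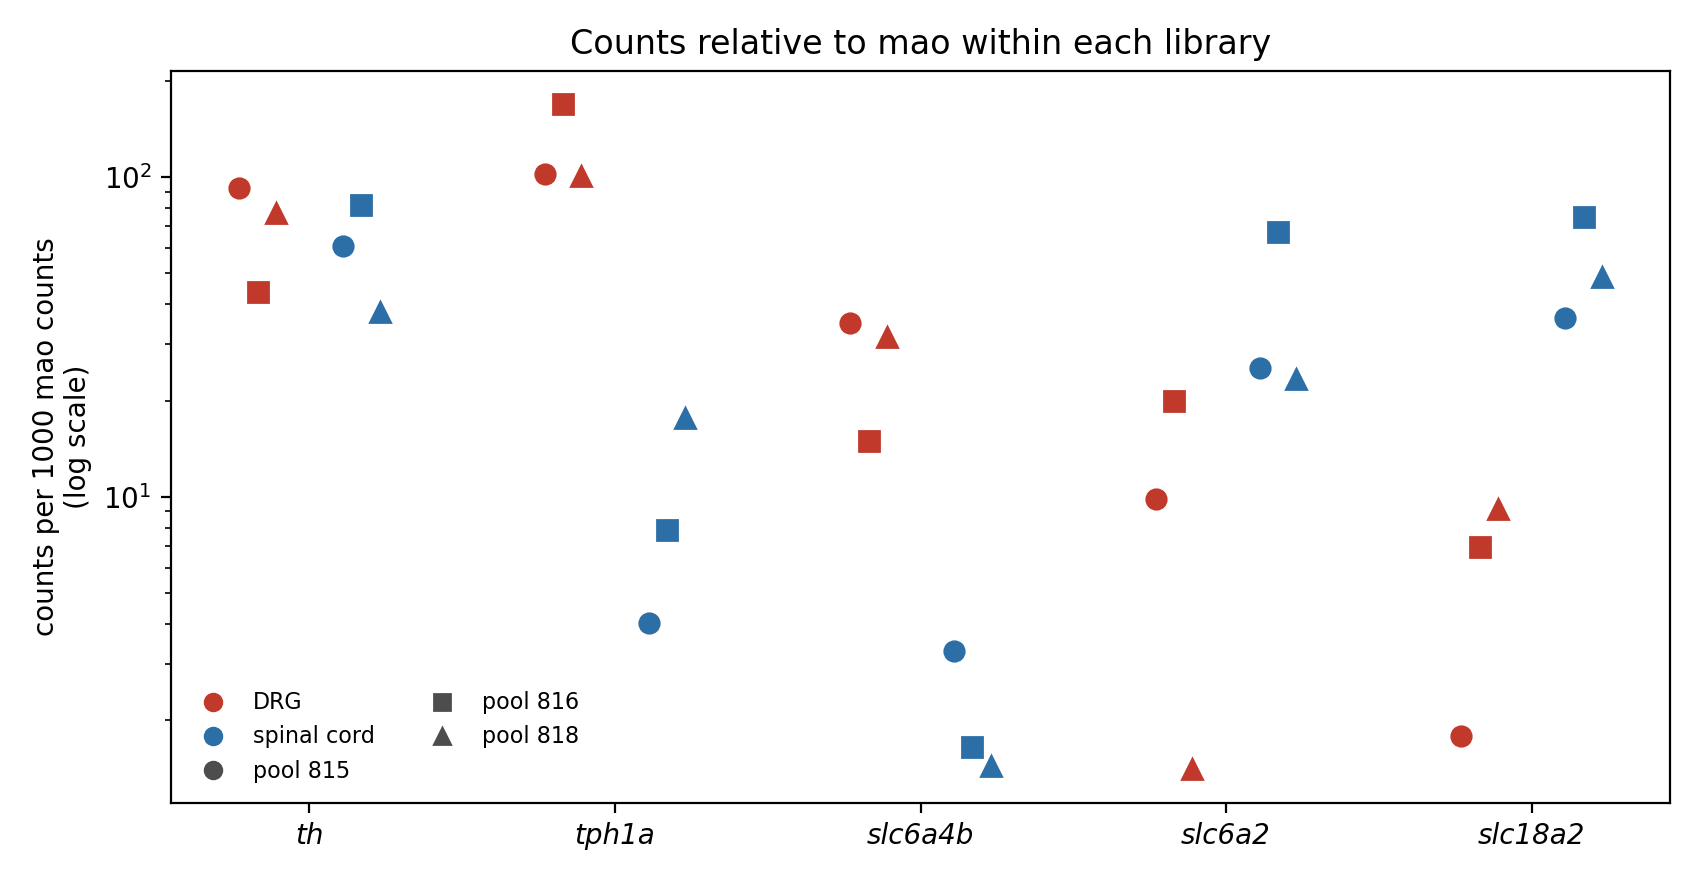
Counts of 5 monoamine genes per 1000 counts of mao in the same library, on a log scale; red marks DRG, blue marks spinal cord and the marker shape gives the pool. DRG lies above spinal cord for tph1a and slc6a4b and below it for slc6a2 and slc18a2, and the tissues overlap for th.

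Within the spinal cord several monoamine genes varied between pools. Pool 816 held the highest of the cord libraries for th, dbh, slc6a2 and slc18a2, and 31.9% of all tested genes were highest in that library. Relative to the mean of the cord libraries, pool 816 stood at 2.18 for dbh, 1.76 for slc6a2, 1.42 for slc18a2 and 1.37 for th. Of these, slc18a2 serves serotonin as well as catecholamines. The genes tph1a and slc6a4b did not share this order: tph1a was highest in cord pool 818, at 1.79 times its mean, and slc6a4b in cord pool 815, at 1.53 times its mean. For mao the cord libraries lay between 0.983 and 1.01 times the mean, with pool 816 marginally the highest. A peak in cord pool 816 was not limited to monoamine genes. The gene avil, from the sensory list, stood at 3.70 CPM there, against 0.789 and 0.666 CPM in cord pools 815 and 818. It did not mark DRG in these libraries, with 1.26, 1.06 and 1.94 CPM in DRG pools 815, 816 and 818. Of the same list, ntrk2a was also highest in cord pool 816, whereas isl1a, runx1, runx3 and drgx were not. Among other markers, chgb and gad2 were highest in that pool, at 94.5 and 309 CPM, whereas phox2a and chga were not.

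Markers of sympathetic neurons and chromaffin cells, the noradrenaline-making cells of the trunk, were set beside these values. Of 8 symbols 4 matched a row, and of 3 tested 1 was higher and 2 were lower in DRG, where 27.8% and 28.1% of all genes were. Their summed levels were 232 to 440 CPM in DRG and 166 to 181 CPM in spinal cord. Of these sums, chga alone held 225 to 436 CPM in DRG and 80.7 to 99.0 CPM in spinal cord. The defining factor hand2 had at most 1 count in any library. The transcription factor gene phox2a, which noradrenergic neurons of the brainstem and of sympathetic ganglia need in mammals, stood at 0.229, 0 and 0 CPM in DRG, against 0.713, 0.770 and 0.973 CPM in spinal cord. Its call (edgeR adjusted p = 0.0203) was lost when DRG pool 816 or any library of the cord was left out. Of the cord libraries, pool 816 was the highest for chgb and the middle one for phox2a and chga. The granin genes, which encode proteins of dense-core vesicles, went in opposite directions: chga had a log2 fold change of 1.77 ± 0.26 SE and chgb of -4.04 ± 0.26 SE (edgeR adjusted p = 0.000719 and 1.43e-05).

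**Figure D4:**
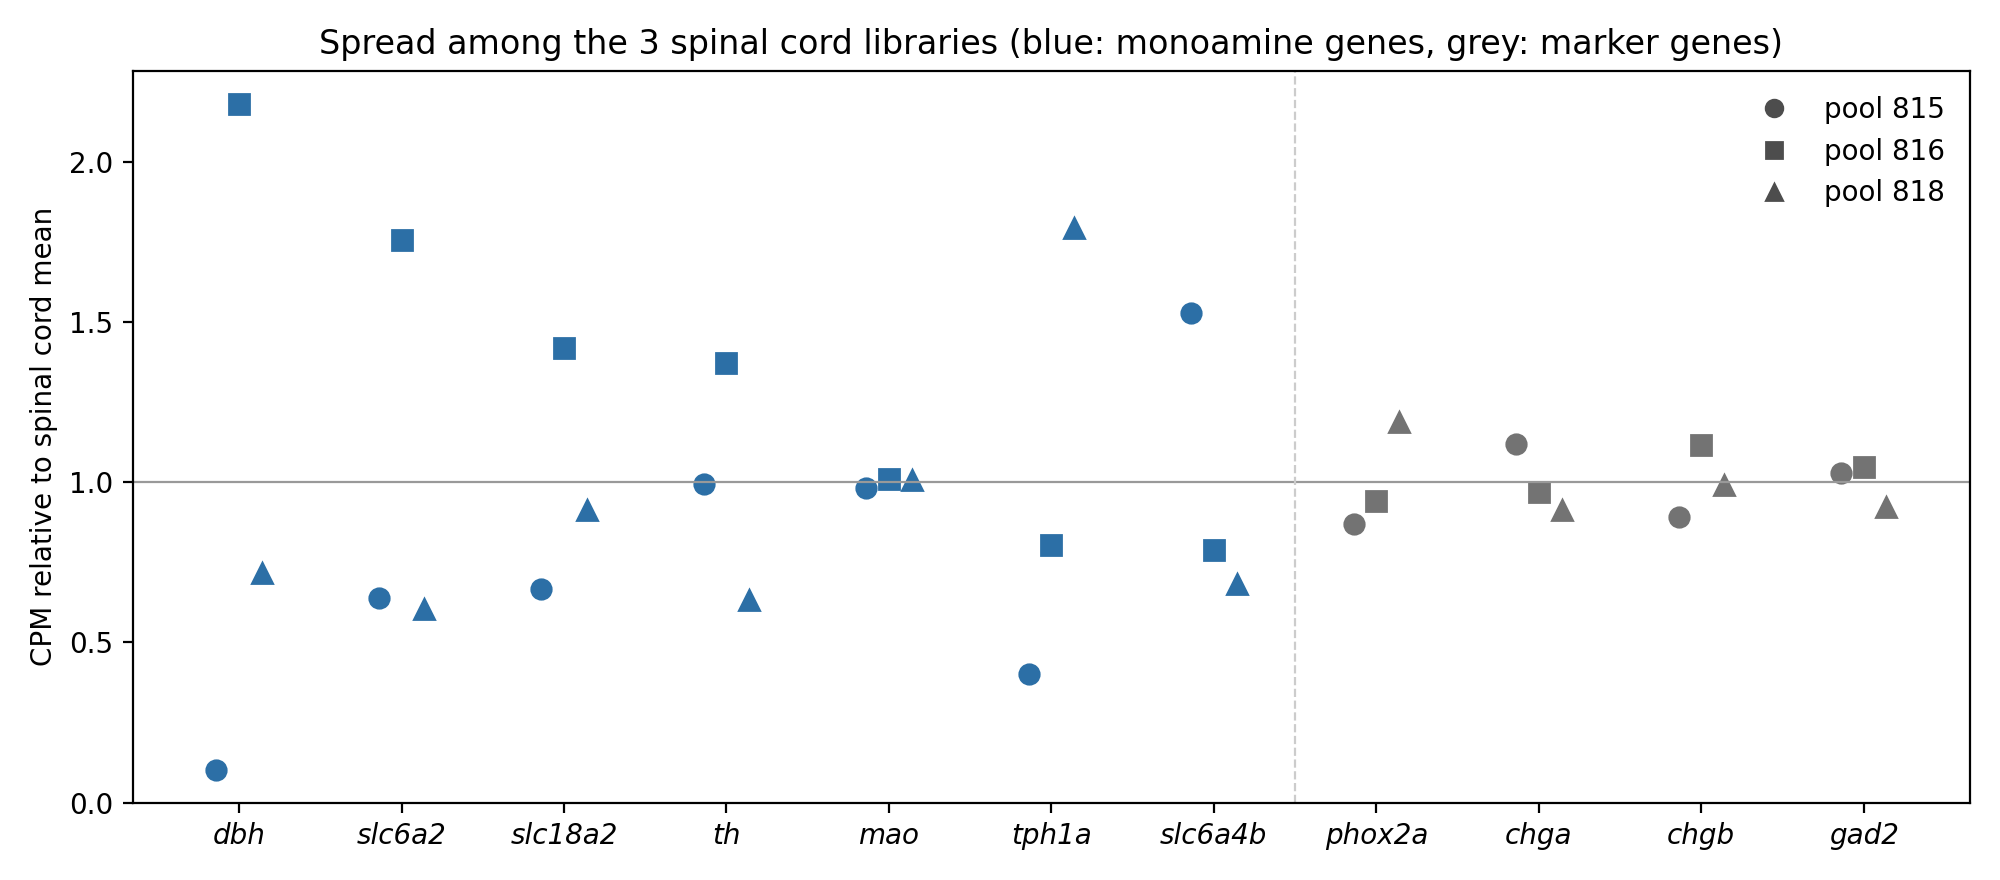
Level of each gene in the 3 spinal cord libraries relative to their mean, from CPM scaled with TMM, for 7 monoamine genes (blue) and 4 marker genes (grey); marker shapes give the pool and the horizontal line is the mean. Pool 816 is highest for dbh, slc6a2, slc18a2 and th, at 1.37 to 2.18 times the mean, while the points of mao coincide. The 4 marker genes drawn lie within 0.87 to 1.19 times theirs. Of the marker genes drawn, chgb and gad2 are also highest in pool 816. The gene avil, not drawn, was highest there too.

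Cells known to hold th in other vertebrates were followed through their markers. Of 5 tested markers of mouse C-LTMRs, 4 were higher and 1 was lower in DRG, where 27.8% and 28.1% of all genes were. Their median log2 fold change was 1.59, against -0.04 over all genes. For the tested markers of sensory neurons in general, a list that shares runx1, it was similar, at 1.55. With library sizes alone, runx1 and cacna1ha missed the threshold. The receptor gene ret rose to 414 ± 135 CPM in DRG, against 25.6 ± 3.51 in cord (SD, n = 3 each; 4.01 ± 0.28 SE on the log2 scale, edgeR adjusted p = 2.14e-05), and tafa4b, a secreted protein gene that marks these cells in mice, to 54.6 ± 6.63 CPM in DRG, against 7.86 ± 0.536 in cord (SD, n = 3 each). The co-receptor gene gfra2b was lower in DRG (log2 fold change -2.12 ± 0.17 SE, edgeR adjusted p = 3.64e-05). The vesicular glutamate transporter slc17a8, another marker of these cells in mice, had 0, 0 and 2 counts in DRG and 8, 17 and 8 counts in spinal cord. Of these mouse markers, tafa4b and ret were higher in DRG, whereas th showed no detectable difference and slc17a8 stayed at or below 2 counts in each DRG library.

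Neurons that contact the cerebrospinal fluid contain monoamines in several fishes. Of their 4 tested markers, 3 were lower in DRG, where 28.1% of all genes were, and gata3 did not pass. Their summed levels were 1.83 to 11.3 CPM in DRG and 26.8 to 34.4 CPM in spinal cord. Without DRG pool 816, gata3 passed and was lower in DRG (log2 fold change -1.50). The channel gene pkd2l1, which defines these cells, stood at 0.400, 5.04 and 2.35 CPM in DRG, against 19.2, 13.3 and 16.0 CPM in spinal cord (log2 fold change -2.64 ± 0.66 SE, edgeR adjusted p = 0.00957). The gene myo3b, a myosin of their apical processes, had a log2 fold change of -4.87 ± 0.45 SE.

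Around the monoamine genes, 5 lists covered cofactor supply, other clearance routes, histamine and transcription factors of monoamine neurons. Of 24 distinct genes found, 19 were tested. Of these, 4 were higher and 10 lower in DRG, where 27.8% and 28.1% of all genes were. The median log2 fold change was -1.40, against -0.04 over all genes.

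The hydroxylases need tetrahydrobiopterin (BH4), and the list held genes of its supply and phenylalanine hydroxylase, pah, which uses it. Of 5 tested, pcbd1 and pah were higher in DRG, where 27.8% of all genes were, and 3 did not pass (median log2 fold change 0.52). The gene pcbd1 encodes an enzyme that regenerates BH4 and also a partner of HNF1 transcription factors. It had 83.8, 87.5 and 64.6 CPM in DRG, against 15.1, 13.7 and 13.0 CPM in spinal cord, without overlap (log2 fold change 2.50 ± 0.16 SE, edgeR adjusted p = 1.5e-05). The hydroxylase gene pah was higher in DRG by 1.94 ± 0.66 SE on the log2 scale (edgeR adjusted p = 0.0356). It missed the threshold with the replicate block (adjusted p = 0.11), with library sizes alone (0.93, adjusted p = 0.213) and when DRG pool 815 or 816 or any library of the cord was left out. The genes pts, gchfr and dhfr had log2 fold changes of 0.52, 0.23 and 0.11 and fell below 0 with library sizes alone. With library sizes alone gchfr passed at -0.76 (edgeR adjusted p = 0.00755), and without DRG pool 815 pts passed and was higher in DRG.

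Among other clearance genes, 2 were higher and 2 lower in DRG, where 27.8% and 28.1% of all genes were (median log2 fold change -0.16). The gene slc29a4a belongs to the plasma membrane monoamine transporter, which in mammals takes up serotonin and dopamine with low affinity. It had 11.6, 4.75 and 5.83 CPM in DRG, against 70.3, 87.4 and 64.9 CPM in spinal cord, and every DRG library lay far below every cord library (log2 fold change -3.33 ± 0.33 SE, edgeR adjusted p = 0.000101). It was thus lower in DRG in all 3 pools, as slc18a2 was, and the opposite of slc6a4b. The paralogs of aldehyde reductase went opposite ways. One, akr1a1b, had 193 ± 29.5 CPM in DRG and 60.9 ± 6.14 in cord (SD, n = 3 each; 1.66 ± 0.16 SE on the log2 scale, edgeR adjusted p = 9.04e-05). The other, akr1a1a, had 2.86 ± 1.26 CPM in DRG and 7.61 ± 3.26 in cord (SD, n = 3 each; -1.40 ± 0.42 SE on the log2 scale, edgeR adjusted p = 0.0218), a call lost without DRG pool 815, DRG pool 816 or spinal cord pool 816. The aldehyde dehydrogenase gene aldh7a1 was higher in DRG by 1.08 on the log2 scale; scaled to library sizes alone it changed by 0.11 and missed the threshold. Histidine decarboxylase, hdc, which makes histamine, had 20 counts summed over the DRG libraries and 56 over the cord libraries and did not pass (edgeR adjusted p = 0.524), except with library sizes alone (-1.43, adjusted p = 0.0453).

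Transcription factors of monoamine neurons were mostly lower in DRG, where 28.1% of all genes were lower. Of 5 tested on the serotonergic list, 4 were lower in DRG and gata3 did not pass (median log2 fold change -3.58, or -3.32 with foxa2 at its bound), except that gata3 was also lower without DRG pool 816. The defining factor of serotonergic neurons, fev, had no count in 5 libraries and 2 counts in cord pool 816. Of the list, nkx6.1, which patterns the ventral neural tube, had 0.214 ± 0.278 CPM in DRG and 10.7 ± 0.570 in cord (SD, n = 3 each; -5.70 ± 0.76 SE on the log2 scale, edgeR adjusted p = 0.000415). Of 4 tested on the catecholaminergic list, 4 were lower in DRG (median log2 fold change -4.35, or -2.92 with en1a at the same bound). Of its untested genes, pitx3 had 2, 2 and 5 counts in DRG and 2, 1 and 0 in spinal cord. For foxa1 there were 0, 0 and 3 counts in DRG and 7, 8 and 11 in spinal cord. The homeobox gene otpa, which dopaminergic neurons of the zebrafish diencephalon need, had 0.367 ± 0.241 CPM in DRG and 43.1 ± 2.65 in cord (SD, n = 3 each; -6.90 ± 0.32 SE on the log2 scale, edgeR adjusted p = 3.66e-06). The nuclear receptor gene nr4a2a, needed by dopaminergic neurons of the mammalian midbrain, had a log2 fold change of -1.99 ± 0.26 SE (edgeR adjusted p = 0.000351). Most of these factors also serve other cells of the cord.

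**Figure D5:**
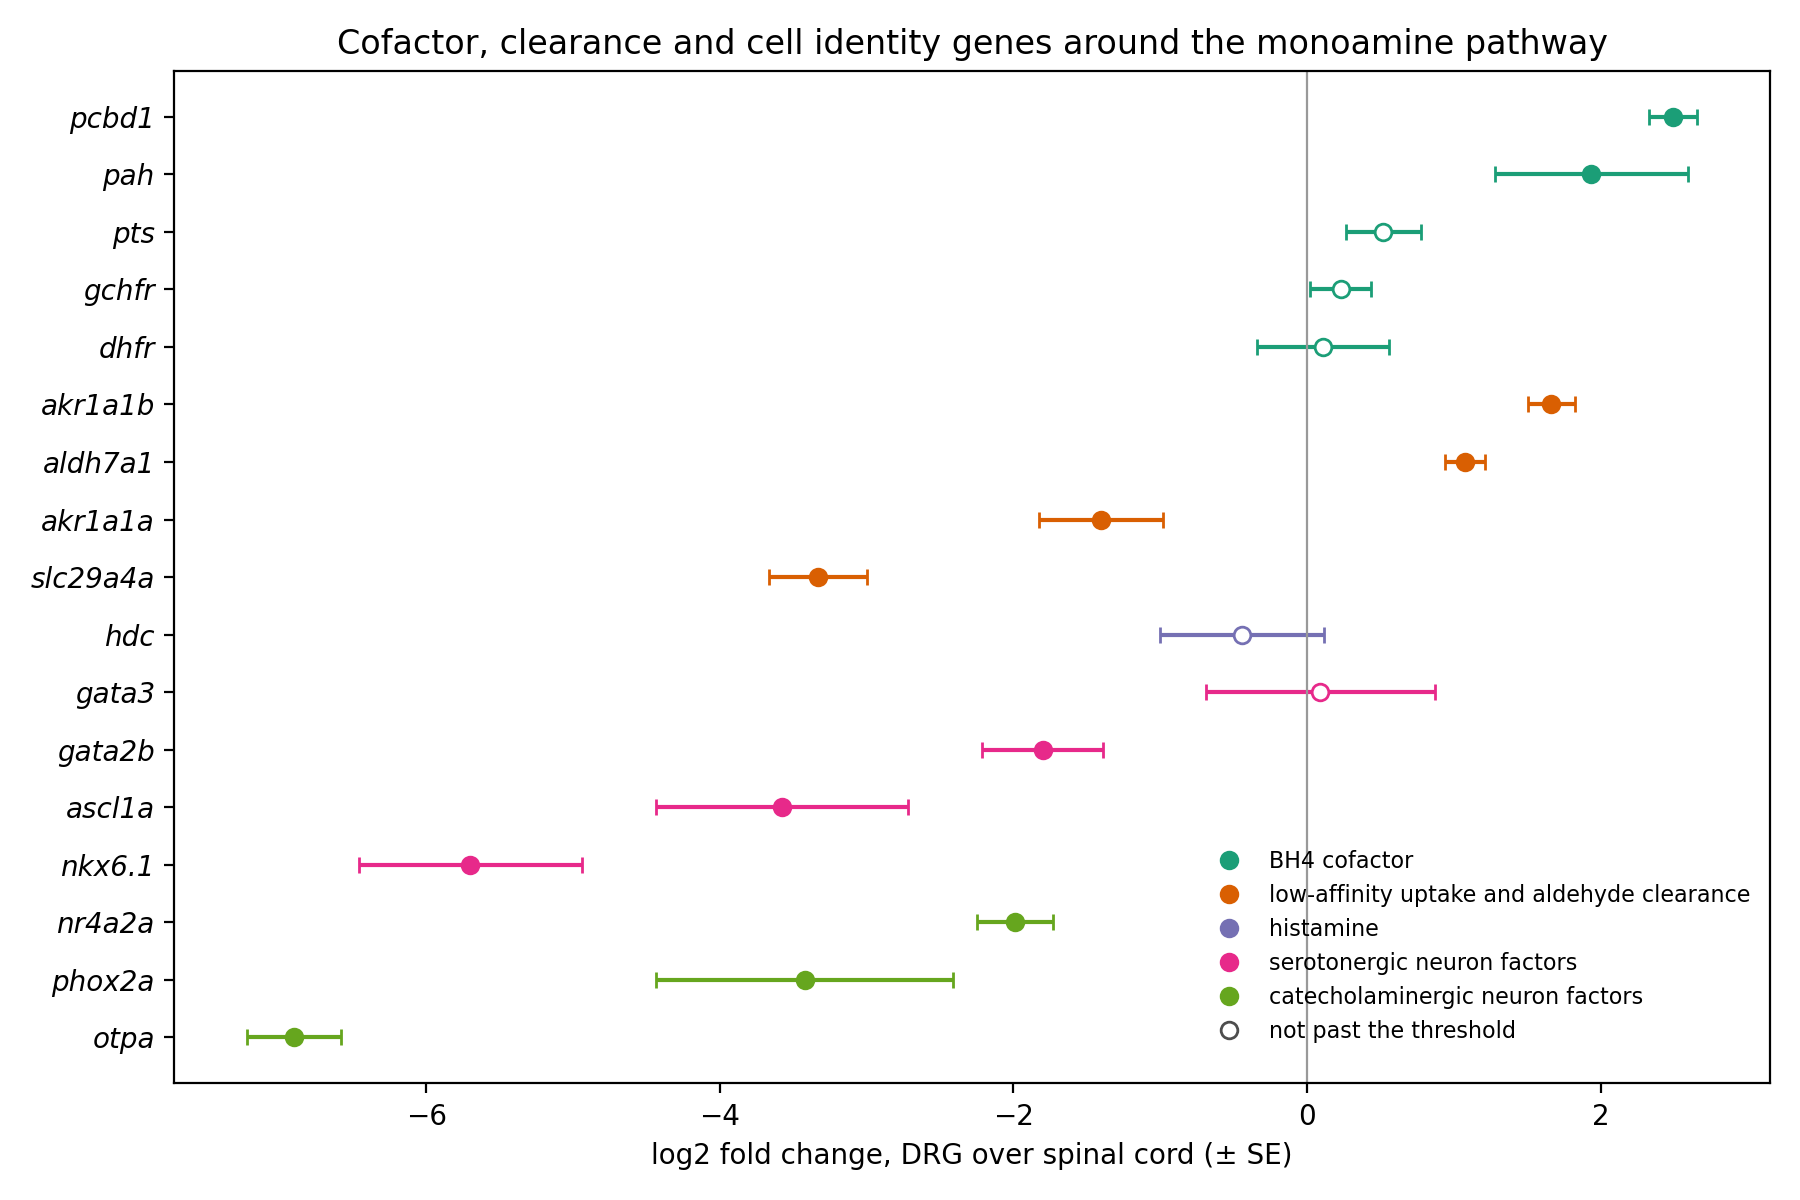
Change in DRG relative to cord on the log2 scale, with its SE, for 17 tested genes of 5 lists around the monoamine pathway; filled points passed an edgeR adjusted p of 0.05 and open points did not, and foxa2 and en1a, at no more than 3 counts in every DRG library, are not drawn. The point of pcbd1 lies farthest to the right and that of otpa farthest to the left.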

How the data were processed

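The authors deposited 1 table of raw counts per gene for 6 libraries of 2 tissues. Per the submitters' processing notes, Trimmomatic, HISAT2 2.2.0, SAMtools, featureCounts and edgeR 4.4 were used; the genome build, the annotation and the strand setting of the counting are not given in the sources used here, so no coordinates are given, and reads of overlapping genes or of similar paralogs could be split between them. The libraries were stranded, per the labels. The 24 rows that name no gene, 1.02% to 2.04% of the counts of a library, were left out.

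Genes were filtered with filterByExpr and tested on the counts with edgeR 4.0.16 in R 4.3.3 (TMM, glmQLFit, glmQLFTest, tissue as the only term, adjusted p under 0.05 over all genes). The SE is the size of the log2 fold change divided by the square root of F. The test was also run on simulated counts in which few genes changed and all shared a common dispersion. In these data 55.9% of genes differed, so that run does not check the scaling or the genes with low counts. P-values measure the spread between pools of embryos.

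Other settings were tried: scaling by DESeq2 size factors, by the upper quartile or by library size; DESeq2 1.42.0 and limma 3.58.1 voom; no filter and at least 10 counts in every library; the pool as a replicate block; and leaving out each library in turn. DRG and spinal cord share pool numbers, which the labels also call a batch. The main fit did not use this pairing, which entered only in the fit with the pool as a replicate block. The correlation of deviations from the tissue means was 0.48, -0.24 and -0.18 in pools 815, 816 and 818. Replicates 1, 2 and 3 are these pools.

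The monoamine genes and the gene lists were chosen with earlier results of these data known. Every monoamine gene is named; of the other lists, the 3 genes with the largest change among those past the threshold that averaged 5 CPM or more in either tissue are named. The genes hand2, phox2a, slc17a8, fev, pah, pts, gchfr, dhfr, aldh7a1, hdc, gata3, rhag, ptprc, spi1b, runx1, cacna1ha, gp1bb, mpl, kita and tie1 were named beyond that rule, after their values were seen. The same holds for ntrk2a, isl1a, runx3, drgx, prdm12b, avil, neb, pdgfra, pdgfrb, foxa2, foxa1, pitx3 and en1a, and for gad2, which is drawn among the marker genes. Plots were made in matplotlib 3.10.9 (Python 3.11.15).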

Additional observations from a re-analysis of the deposited data

How the results depend on the processing

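The number of all genes that differed was 9002, and 7416 to 10882 under the alternatives. Of the monoamine genes, tph1a and slc6a4b were higher in DRG in each alternative that tested them. The number higher in DRG was 2, and 1 with at least 10 counts in every library, where slc6a4b was not tested; it was 2 in each fit that left out 1 library. The number lower in DRG was 1 (slc18a2). It was 2 with DESeq2, with limma voom and with the replicate block, where slc6a2 was added, 3 with library sizes alone, where slc6a2 and mao were added, 2 without a filter, where dbh entered the test, and 0 with at least 10 counts in every library, where slc18a2 was not tested. It was 1 to 3 in the fits that left out 1 library. In 4 of these fits dbh passed the filter and was lower in DRG; without spinal cord pool 816 or 818 it was not tested. The replicate block changed the call of slc6a2 and of no other monoamine gene. The log2 fold change of th, 0.08, was -0.85 with library sizes alone, -0.0025 under the stricter filter of 10 counts per library, and -0.17 to 0.37 in the fits that left out 1 library; it did not pass in any. Of the pathway genes, 14 differed, 6 with at least 10 counts in every library, 13 with the replicate block and 11 to 14 with 1 library left out. Low counts limit th2, dbh, slc6a4b, slc18a2 and slc6a2, each of which was at or below 5 counts in at least 1 library.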

Other observations

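In the RefSeq gene table of the assembly Leri_hhj_1, used for names and gene order alone, all 8 monoamine genes were found, and the span of none overlapped its nearest listed neighbour on either side. The vesicular transporter gene slc18a2 lies next to kcnk18, a two-pore potassium channel gene of sensory neurons. These neighbours went opposite ways: kcnk18 had 163, 192 and 178 CPM in DRG, against 0.127, 0.355 and 0.128 CPM in spinal cord, while slc18a2 was lower in DRG. On the other side of slc18a2, pdzd8 did not pass (log2 fold change -0.19, edgeR adjusted p = 0.237). The gene th2 lies between igf1 and pah. The neighbours of dbh, sardh and adamtsl2, were both lower in DRG, as 28.1% of all genes were, with log2 fold changes of -1.50 and -3.55 (edgeR adjusted p = 0.0229 and 0.00215). Those of tph1a went opposite ways: saal1 at 1.06 and LOC129705811 at -0.86 (edgeR adjusted p = 0.00104 and 0.00521). Beside th, LOC129705839 was higher in DRG by 4.19 (edgeR adjusted p = 0.000108). The neighbours of slc6a4b were svopa, higher in DRG by 1.59, and ankrd13a, at -0.01 (edgeR adjusted p = 3.83e-05 and 0.955). The platelet receptor gene gp1bb lies next to septin5a, which had a log2 fold change of 0.41 (edgeR adjusted p = 0.0457).

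Of the other cell types whose markers were looked up, floor plate and astroglia had all tested markers lower in DRG (4 of 4 and 3 of 3). Connective tissue had 3 of 3 higher, and peripheral glia had 3 higher and 3 lower of 6. Over all genes 27.8% were higher and 28.1% lower in DRG. The connective tissue marker pdgfra missed the threshold with library sizes alone (log2 fold change 0.22, edgeR adjusted p = 0.467). In the endothelial list 1 of 4 was higher and 2 were lower in DRG. Of these, tie1 (edgeR adjusted p = 0.0479), missed the threshold with the replicate block (0.0602), with DESeq2 size factors and when DRG pool 815 or 818 or any library of the cord was left out. In the muscle list 1 of 2, neb, was higher in DRG. Its call was lost with library sizes alone (edgeR adjusted p = 0.291) and when any library of the cord was left out. The pericyte marker pdgfrb was lower in DRG. The part of these cells in the levels of the monoamine genes was not tested.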
